A study of Mus musculus with 13 samples.

Results

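Unsorted responders at day 5 were the 154 single CD8+ T cells whose columns carry the day 5 bulk heading, out of 1449 cells in 13 populations, and every column with that heading was taken. They were OT-1 cells, which carry a transgenic T cell receptor for an ovalbumin peptide and the CD45.1 allele, isolated from the spleens of wild-type CD45.2 C57BL/6J recipients that had received 5000 of these cells and, 1 day later, 5000 colony-forming units (CFU) of Listeria monocytogenes expressing ovalbumin. Each cell was lysed and amplified for a fixed panel of TaqMan assays and read by quantitative PCR, and 94 genes are described. The comparison populations were naive OT-1 cells (149 cells), unsorted responders at day 3 (143 cells, from recipients of 20000 OT-1 cells) and at day 7 (134 cells, from recipients of 5000 cells and 5000 CFU), and the day 5 cells sorted as memory precursors, Tmp (90 cells), or as short-lived effectors, Tsle (79 cells), also from recipients of 5000 cells and 5000 CFU. Co-detection was also set beside that of day 7 Tsle cells (89 cells, from recipients of 5000 cells and 5000 CFU). The labels give no transfer or infection for the naive cells and restate no bacterial dose for day 3. All responders shared 1 transgenic receptor, so these cells are not a polyclonal response. Sorting used antibodies to CD8 and CD44 and to the lineage markers CD4, CD11b, CD11c and F4/80. The sources used here give neither the gates nor the number of mice nor the array of each cell.

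A CD8+ T cell that meets its antigen divides many times and loses transcripts of lymph node residence, such as Ccr7, while it gains chemokines, receptors for inflamed tissue and cytotoxic molecules. The expanding pool is not uniform: cells with high Klrg1 mostly die after the infection, whereas others keep the capacity to become memory cells, a capacity tied to the transcription factor Tcf7 (TCF-1). Zeb2 and Prdm1 (Blimp-1) encode transcription factors that promote terminal effector differentiation, and Il2ra encodes the chain that makes the interleukin-2 receptor high-affinity.

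Each population was 1 sample, so there was no replicate and no test, and no p-value is given. A transcript was called detected in a cell when its deposited value was above 0, and shares of cells are followed by exact (Clopper-Pearson) 95% intervals, which cover counting error only. For a count of 0 the upper limit printed is instead the share that 3 cells would make, 1.95% of the 154 cells, where the exact interval reaches 2.37%. The deposited value was read as 40 minus the PCR threshold cycle (Ct), so that 1 unit is 1 PCR cycle and a higher value is more RNA. Genes are counted as different between populations when their shares lay at least 20 percentage points apart, or when their mean levels lay at least 1 cycle apart. A gene's level per cell is the deposited value minus 12, and 0 at or below that limit, so it states how many cycles the signal lay above a Ct of 28.

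The 154 cells did not form 1 uniform run of columns. The median number of genes detected per cell was 19 (range 9 to 35), with medians of 21 over the earlier 77 columns and 16 over the later 77. Lgals1, which encodes the lectin galectin-1, changed abruptly between columns 72 and 73. Its values ranged from 1.27 to 16.4, with a median of 12.1, in the first 72 cells, and from 14.1 to 19.6, with a median of 18.2, in the 80 detected of the 82 cells that followed. Thy1, a pan T cell surface marker, went from a median of 12.8 to 14.9 at the same column, and Klrg1 from 11.8 (15 cells) to 15.9 (7 cells). Actb differed less, with medians of 20.6 and 21.1. Shares moved the other way: 7 of 94 genes (7.45%) were detected in at least 20 points more of the earlier cells than of the later ones (among them Il2rb, Thy1, Ifngr1, Psmb7 and Stat4), and 0 of 94 in more of the later ones. The labels name no batch, and what separates these columns was not tested. Results below are therefore given in the earlier and later columns where they turn on them.

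**Figure D1:**
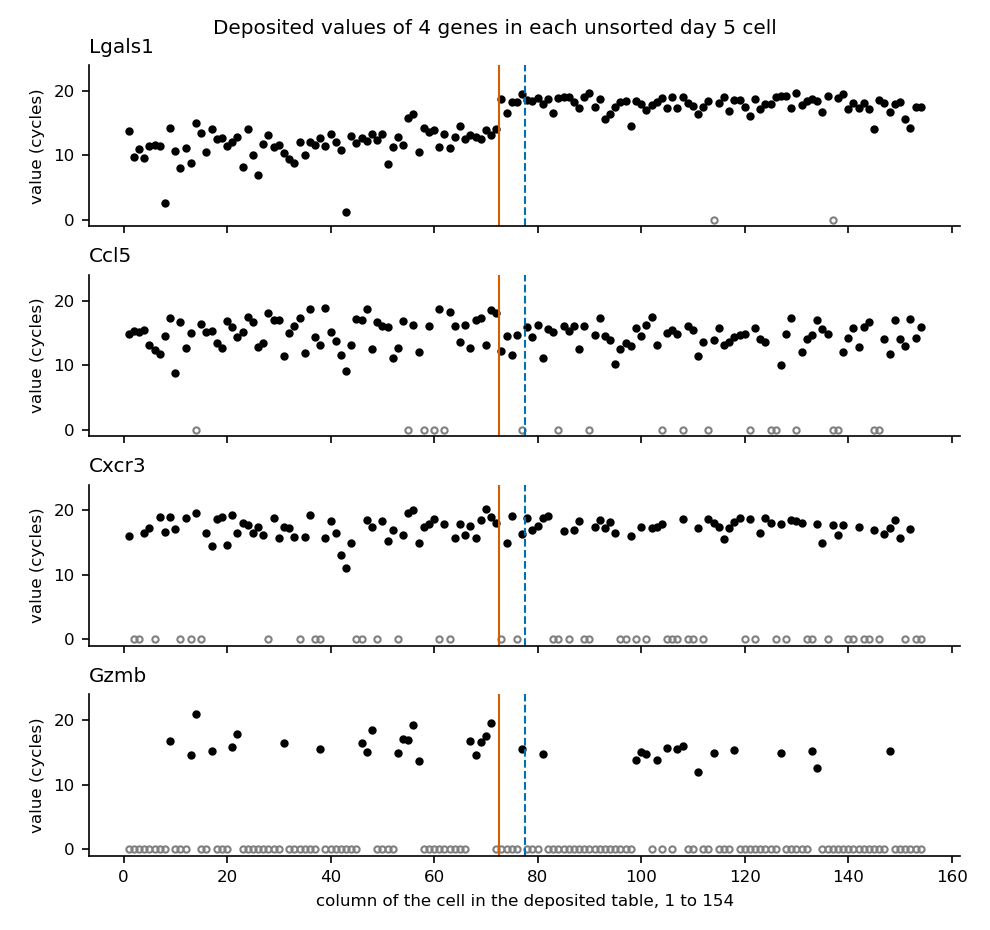
Deposited value, in PCR cycles, of Lgals1, Ccl5, Cxcr3 and Gzmb in each of the 154 unsorted day 5 cells, in the order of their columns. Filled points are detected cells, open grey points are cells at 0, the solid line follows column 72 and the dashed line divides the earlier from the later 77 columns. The Lgals1 median was 12.1 before the solid line and 18.2 after it, while the Cxcr3 medians were 17.4 and 17.6.

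The cells carried the transcripts of CD8 T cells and few or no transcripts of other T cell lineages. Ptprc, which encodes CD45, was in 99.4% of the cells, Thy1 in 65.6% and Cd8a in 57.8% (49.6% to 65.7%). Cd44 was in 7.14%, although CD44 protein was among the sorting antibodies. Cd4 and Foxp3, the markers of helper and regulatory T cells, were in 0 of 154 cells, and Gata3, a factor of type 2 helper cells that CD8 T cells also express, in 8 (5.19%). The panel held no marker of B cells, myeloid cells or NK cells from the lists used. All 6 transcripts taken as markers of these cells were found: Lgals1 in 98.7%, Ccl5 in 87.7%, Cxcr3 in 68.8%, Zeb2 in 31.8%, Gzmb in 24.03% and Prdm1 in 20.8% of the cells. Only the first 3 of these were in most cells, so Zeb2, Gzmb and Prdm1 describe fractions of the pool. The 6 were chosen with earlier results of these data known, so finding them is no independent sign of identity. Nor were all of them particular to these cells: Gzmb was in 21.7% of day 3 and Ccl5 in 94.9% of day 5 Tsle cells.

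Over all 94 genes, detection ran from every cell to none. R18s, Actb and Gapdh, the reference transcripts, were in all 154 cells, and Ptprc, Lgals1 and Klf2 in at least 90%. A further 7 genes were in 50% to 90% of the cells (among them Ccl5, Il2rb, Cxcr3, Thy1, Cd8a and Ifngr1), 14 in 20% to 50%, 16 in 10% to 20%, 34 in fewer than 10% and 17 in none. The genes in 0 of 154 cells included the cytokine genes Il2, Il3 and Lif, the chemokine genes Xcl1 and Cxcl10, and the E-protein inhibitors Id2 and Id3. Tbx21, which encodes the effector factor T-bet, was in 1 cell (0.65%, 0.02% to 3.56%), while its relative Eomes was in 49 (31.8%). Myc was in 4.55% and Ifng in 3.25% of the cells.

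**Figure D2:**
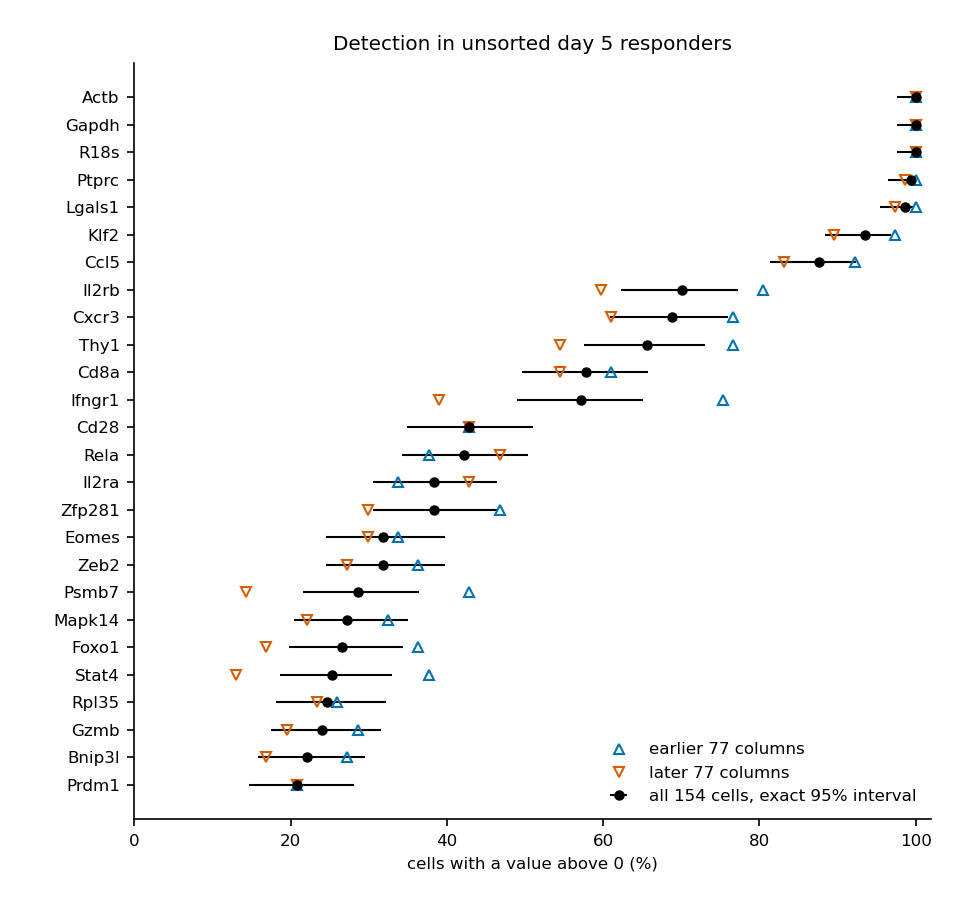
Share of unsorted day 5 cells, in percent, with a value above 0 for genes found in at least 20% of them. Black points and bars are the share and exact 95% interval over 154 cells, and open triangles the shares in the earlier and later 77 columns. Il2rb, Thy1, Ifngr1, Psmb7 and Stat4 lay at least 20 points apart between the earlier and later columns, whereas Cd28 and Prdm1 were equal in both.

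Genes for a chemokine and a chemokine receptor were among the most frequent effector transcripts. Ccl5 encodes a chemokine that draws T cells and monocytes, and its detected values spread from 8.77 to 18.9 (median 14.9, SD 2.09, 135 cells). Cxcr3, the receptor that guides T cells to interferon-induced chemokines, spread less, from 11.03 to 20.3 (median 17.5, SD 1.47, 106 cells). Ccl3 and Ccl4, 2 further chemokine genes, were each in 3.25%, so the pool held Ccl5 widely and Ccl3 and Ccl4 rarely.

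Among cytokine receptors, Il2rb, the signalling chain shared by the interleukin-2 and interleukin-15 receptors, was in 70.1% of the cells and Il2ra in 38.3% (30.6% to 46.5%). Il2ra values ran from 8.94 to 18.5 with a median of 15.7, and its share was 33.8% in the earlier and 42.9% in the later columns, which was the reverse of Il2rb (80.5% and 59.7%). Il7r, the interleukin-7 receptor chain linked to memory potential, was in 10 cells (6.49%). Ifngr1, a chain of the interferon-gamma receptor, was in 57.1% of the cells, but in 75.3% of earlier and 39.0% of later cells.

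Transcripts of effector differentiation were each in a minority. Zeb2 was in 49 cells with values of 12.4 to 19.8 (median 15.8), in 36.4% of earlier and 27.3% of later cells. Prdm1 was in 32 cells with values of 12.2 to 17.6 (median 16.2), and its share was 20.8% in both sets of columns. Gzmb, the cytotoxic protease granzyme B, was in 37 cells with values of 12.02 to 20.9 (median 15.5), in 28.6% of earlier and 19.5% of later cells. Klrg1, an inhibitory receptor of short-lived effector cells, was in 22 cells (14.3%, 9.17% to 20.8%). Klrc1, the inhibitory receptor chain NKG2A, was in 18.2% and Serpinb9, an inhibitor of granzyme B, in 18.8%. Every detected value of Zeb2, Prdm1 and Gzmb was above 12, the limit used for levels, so their shares were the same with and without that limit.

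Most transcripts of naive and memory cells were in few cells. Tcf7 was in 21 cells (13.6%, 8.64% to 20.1%), with values of 9.60 to 18.0 and a median of 15.0. Of these, 14 were among the earlier 77 columns and 7 among the later. Ccr7, the receptor for lymph node chemokines, was in 5.19% of the cells and Lef1, the partner factor of Tcf7, in 11.7%. Klf2, a factor of quiescence and trafficking, had the highest share of this list, in 93.5% of the cells (88.4% to 96.8%) with values of 14.1 to 19.3. Foxo1, which lies upstream of Klf2, was in 26.6%, a larger share than that of Gzmb, Prdm1 or Klrg1.

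For 6 of the 7 genes whose co-detection is described below, the table of RefSeq promoters (GRCm38.p6) held the sequence before at least 1 start site, and Klrg1 had no entry. The 250 bases before each start were searched on both strands for CACCTG, the E-box read by ZEB proteins, and TCACAC, the half-site of T-box proteins such as Eomes. The 3 promoters with a match, those of Cxcr3, Gzmb and Prdm1, are shown. They lie on the minus strand at chrX:101734148-101734397 (Cxcr3), chr14:56262335-56262584 (Gzmb) and chr10:44458749-44458998 (Prdm1), and are written 5′ to 3′ towards the start with the matches in capitals.
Cxcr3: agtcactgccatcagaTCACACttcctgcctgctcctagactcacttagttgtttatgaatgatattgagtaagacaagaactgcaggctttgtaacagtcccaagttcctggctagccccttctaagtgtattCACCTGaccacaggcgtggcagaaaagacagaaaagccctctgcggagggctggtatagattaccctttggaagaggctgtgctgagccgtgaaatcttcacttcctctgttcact
Gzmb: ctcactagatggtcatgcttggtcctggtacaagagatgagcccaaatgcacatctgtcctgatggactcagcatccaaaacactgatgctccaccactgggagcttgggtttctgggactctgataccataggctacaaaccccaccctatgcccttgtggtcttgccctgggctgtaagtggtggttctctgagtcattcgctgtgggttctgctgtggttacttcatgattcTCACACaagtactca
Prdm1: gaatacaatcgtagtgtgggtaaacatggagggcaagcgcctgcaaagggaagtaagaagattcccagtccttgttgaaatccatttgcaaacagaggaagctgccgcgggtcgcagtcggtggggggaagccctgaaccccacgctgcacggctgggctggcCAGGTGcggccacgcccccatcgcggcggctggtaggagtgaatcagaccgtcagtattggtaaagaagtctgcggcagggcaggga
The Cxcr3 window held 1 T-box half-site and 1 E-box, the Gzmb window 1 T-box half-site, and the Prdm1 window 1 E-box read on the other strand as CAGGTG. Windows before the starts of Tcf7, Zeb2 and Il2ra held neither. Of 32851 such windows in the table, 17.2% held the E-box and 12.3% the half-site, so a match in a window is common, and these matches are descriptions of the sequence and not of binding.

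Compared with naive cells, day 5 responders more often had Lgals1, Ccl5, Cxcr3 and 3 of the 5 measured cytokine receptor transcripts, and less often had Tcf7, Ccr7 and Il7r. Most measured effector genes differed by less than 20 points. By share, 12 of 94 genes (12.8%) were at least 20 points higher and 4 (4.26%) at least 20 points lower at day 5. Lgals1 was in 98.7% of day 5 and 4.70% of naive cells, Ccl5 in 87.7% and 1.34%, and Cxcr3 in 68.8% and 5.37%. The others included Il2rb (70.1% and 19.5%), Thy1 (65.6% and 19.5%), Il2ra (38.3% and 4.70%), Ifngr1 (57.1% and 24.2%), Zeb2 (31.8% and 1.34%), Cd28 (42.9% and 12.8%), Eomes (31.8% and 10.7%) and Prdm1 (20.8% and 0 of 149 cells). The 4 lower genes included Tcf7 (13.6% and 75.2%), Ccr7 (5.19% and 34.9%) and Il7r (6.49% and 32.9%). By list, 3 of 10 measured naive and memory genes were lower and 0 higher (median difference -2.88 points), 3 of 11 effector transcription factors were higher (median 5.84), 2 of 7 cytotoxic and effector genes were higher (median 18.2) and 3 of 5 cytokine receptors were higher and 1 lower (median 33.0), beside a median of 2.56 points over all 94 genes.

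By mean level, 10 genes (10.6%) were at least 1 cycle higher than in naive cells and 3 (3.19%) lower. The Cxcr3 level was 3.69 cycles at day 5 and 0.16 in naive cells, and the Ccl5 level 2.52 and 0.00. The Lgals1 level was 3.41 and 0.00, but its difference ranged from 1.08 to 5.75 cycles over the 4 pairings of day 5 earlier or later columns with naive earlier or later columns (column sets). Tcf7 went from 3.33 in naive cells to 0.45. The reference transcript Actb was itself 1.68 cycles higher at day 5, and day 5 cells had a median of 19 detected genes against 12 in naive cells. When each cell was centred on Actb and Gapdh, or on R18s and Actb, 6 genes were higher and 4 lower in place of 10 and 3, and the Cxcr3, Ccl5 and Lgals1 differences were still at least 2.24 cycles. The part of the number of detected genes in these differences was not tested. In each of the 4 pairings of column sets, 10 genes stayed at least 20 points higher by share and 3 lower. Of the genes named above, Ifngr1 (4.29 to 61.8 points over the pairings), Eomes (17.9 to 24.3) and Il7r (-38.7 to -13.9) did not.

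Between day 3 and day 5, Ccl5, Lgals1, Cxcr3 and Klf2 became frequent, and Tcf7 and Myc became infrequent. Other effector transcripts varied in direction: Ifng was in 13.3% of day 3 and 3.25% of day 5 cells, and Ccl4 in 22.4% and 3.25%. Serpinb9 (1.40% and 18.8%), Klrc1 (1.40% and 18.2%) and Klrg1 (0.70% and 14.3%) were more frequent at day 5, each by less than 20 points. By share, 12 genes (12.8%) were at least 20 points higher at day 5 and 9 (9.57%) at least 20 points lower. The higher genes were led by Ccl5 (3.50% of day 3 cells), Lgals1 (18.2%) and Cxcr3 (6.29%), followed by Klf2, which was in 37.8% at day 3 and 93.5% at day 5. Zeb2 was in 5.59% of day 3 cells and Prdm1 in 0 of 143 (3 cells would be 2.10%). The lower genes included Tcf7 (76.2% at day 3 and 13.6% at day 5), Myc (45.5% and 4.55%), which drives growth and division, Tox, Ccr7, Zfp281, Foxp1, Irf8 and the chemokine gene Xcl1 (23.1% and 0 of 154 cells). Gzmb differed little, with 21.7% at day 3 and 24.03% at day 5, and Il2ra was in 50.3% and 38.3%. Tcf7 was in 75.2% of naive cells, close to its day 3 share, so its difference lay between days 3 and 5.

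The gene lists did not move as wholes between days 3 and 5. Of 10 measured naive and memory genes, 4 were lower by share (Tcf7, Ccr7 and Foxp1 among them) and 1, Klf2, was higher, with a median difference of -5.62 points beside 0.00 over all 94 genes. Of 11 effector transcription factors, 2 were higher (Zeb2 and Prdm1) and 1 lower (Irf8), with a median of 0.85 points. Of 7 cytotoxic and effector genes 2 were higher (Ccl5 and Lgals1), with a median of 16.8 points, of 5 cytokine receptors 2 were higher (Il2rb and Ifngr1), with a median of 0.60 points, and of 3 growth genes 1 was lower (Myc), with a median of -7.59. Of 5 chemokines 1 was higher (Ccl5) and 1 lower (Xcl1), with a median of -11.4 points. Of 5 homing and adhesion genes 2 were higher and 2 lower, with a median of 3.65. In each of the 4 pairings of column sets, 8 genes stayed at least 20 points higher than at day 3 and 5 lower. Zeb2 (18.8 points in its lowest pairing), Il2rb (14.7) and Ifngr1 (12.6) did not. Neither did Irf8 (-18.5 in its weakest pairing), Xcl1 (-15.3), Zfp281 (-15.2) and Foxp1 (-9.87). By mean level 10 genes (10.6%) were at least 1 cycle higher and 6 (6.38%) lower, among them Klf2, at 4.39 cycles on day 5 and 1.19 on day 3, and Tcf7, at 0.45 and 3.72. The 10 included the reference transcripts Actb (1.68 cycles higher) and R18s (1.05) and also Ptprc (1.17), and the median number of detected genes was 16 at day 3 and 19 at day 5. With each cell centred on Actb and Gapdh, the 10 higher and 6 lower genes became 6 and 6, and with R18s and Actb as the centre they became 5 and 7. The Klf2 difference from day 3 was 2.51 and 2.33 cycles under these centrings, and that of Tcf7 -3.72 and -3.75. Recipients of day 3 cells had received 20000 OT-1 cells and those of day 5 cells 5000, so time and the number transferred cannot be told apart.

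**Figure D3:**
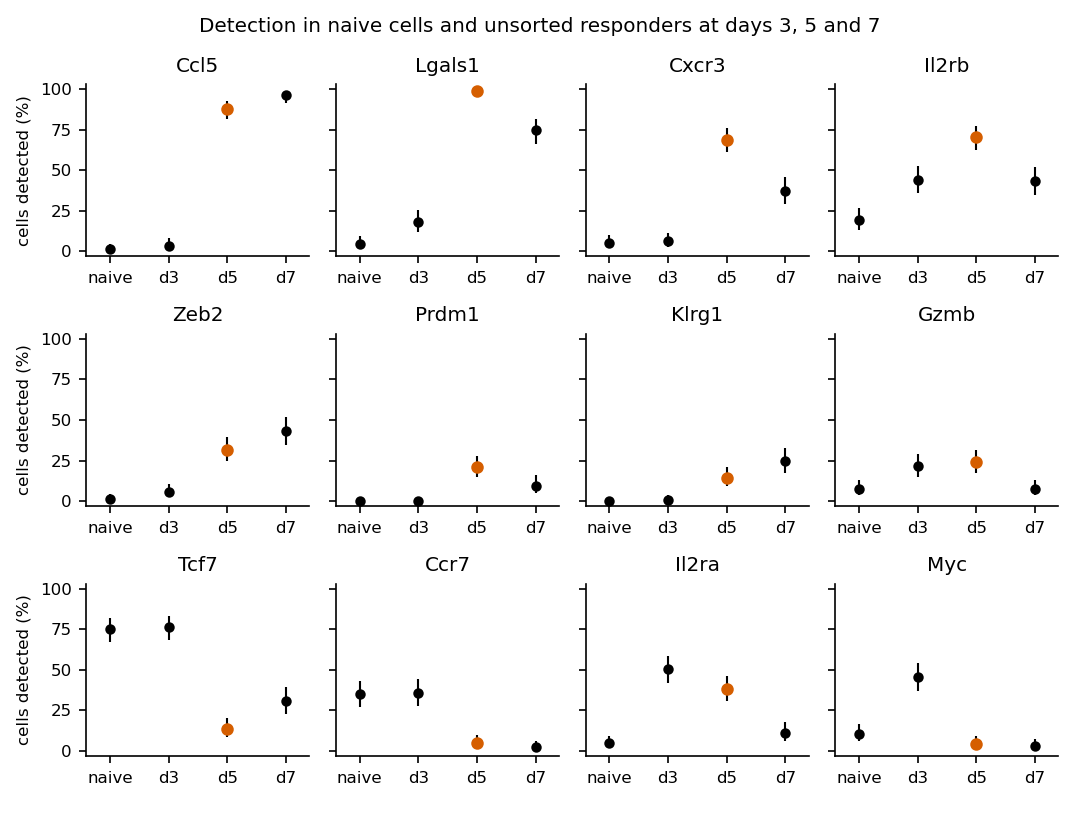
Share of cells, in percent, with a value above 0 for 12 genes in naive cells (149) and in unsorted responders at day 3 (143), day 5 (154, orange) and day 7 (134), with exact 95% intervals as bars. Ccl5 went from 3.50% at day 3 to 87.7% at day 5, and Tcf7 from 76.2% to 13.6% and then to 30.6% at day 7.

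Between day 5 and day 7 the differences were smaller and mostly in the direction of less detection at day 7. By share, 5 genes (5.32%) were at least 20 points higher at day 5 and 0 (0%) lower. Cxcr3 was in 68.8% of day 5 and 37.3% of day 7 cells, Il2ra in 38.3% and 11.2%, Il2rb in 70.1% and 43.3%, Lgals1 in 98.7% and 74.6%, and Ifngr1 in 57.1% and 36.6%. The 3 receptor genes among them made up 3 of the 5 measured cytokine receptors, whose median difference was 20.6 points beside 0.00 over all 94 genes. Several effector and memory genes differed by less than 20 points: Gzmb was in 24.03% at day 5 and 7.46% at day 7, Prdm1 in 20.8% and 9.70%, Zeb2 in 31.8% and 43.3%, Klrg1 in 14.3% and 24.6%, and Tcf7 in 13.6% and 30.6%. Among naive cells and days 3, 5 and 7, Prdm1 and Gzmb had their highest share at day 5, and Zeb2 and Klrg1 had theirs at day 7. The intervals of days 3 and 5 overlap for Gzmb, and those of days 5 and 7 overlap for Zeb2 (24.6% to 39.8% and 34.8% to 52.1%) and for Klrg1 (9.17% to 20.8% and 17.6% to 32.8%). The Klrg1 difference from day 7 ranged from -23.7 to 3.06 points over the 4 pairings of columns. None of the 5 differences stayed at 20 points in each of the 4 pairings of column sets.

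By mean level, 7 genes (7.45%) were at least 1 cycle higher at day 5 than at day 7 and 2 (2.13%) lower. Cxcr3 stood at 3.69 and 1.37 cycles and Klf2 at 4.39 and 3.28. The lower genes were Ccl5, at 2.52 cycles on day 5 and 4.66 on day 7, and Tcf7, at 0.45 and 1.52. Ccl5 was therefore already near its day 7 share at day 5 (87.7% and 96.3%) but with fewer cycles above the limit. The Ccl5 difference ranged from -3.39 to -0.89 cycles over the 4 pairings of columns, and 3 of the 7 higher genes held in all of them. Centred on Actb and Gapdh, the 7 higher and 2 lower genes became 4 and 3, with the Klf2 difference at 0.56 cycles. Centred on R18s and Actb they became 8 and 1, with the Tcf7 difference at -0.85 cycles.

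Beside the sorted day 5 cells, the unsorted pool lay between Tmp and Tsle for most genes that separate them. Tmp and Tsle differed by at least 20 points for 5 of the 94 genes, and the unsorted share lay between theirs for 4. When only values above the limit counted as detected, it lay between for 3 of 5. These genes were chosen for a wide gap between the sorted populations, which leaves more room for a share in between. Klrg1 was in 1.11% of Tmp, 14.3% of unsorted and 40.5% of Tsle cells, and Tcf7 in 38.9%, 13.6% and 0 of 79. By level the order of Klrg1 turned, with 0.27 cycles in unsorted, 0.03 in Tmp and 0.03 in Tsle cells, and its value passed the limit in 2.53% of Tsle and 9.09% of unsorted cells. Cd28, the costimulatory receptor, was in 55.6%, 42.9% and 24.1%, and Ccl5 in 74.4%, 87.7% and 94.9%. Id2 was the exception, in 58.9% of Tmp cells and in none of the unsorted or Tsle cells, and no Tmp value of it passed the limit, so that its mean level was 0.00 in all 3 populations. How Tmp and Tsle cells were gated is not stated in the sources used here, and Klrg1, a common gate for these populations, is no independent measure if it was used.

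Counted against each sorted population, 2 genes (2.13%) were at least 20 points higher in unsorted than in Tmp cells (Ifngr1 and Mapk14) and 2 (2.13%) lower (Id2 and Tcf7). Against Tsle cells 1 gene (1.06%) was higher (Cxcr3, 68.8% and 44.3%) and 1 (1.06%) lower (Klrg1). By mean level, 7 genes (7.45%) were at least 1 cycle higher in unsorted than in Tmp cells and 0 (0%) lower, and 4 (4.26%) were higher and 1 (1.06%) lower than in Tsle cells. All 4 of those, Cxcr3, Ccl5, Lgals1 and Klf2, were higher against both sorted populations, although over the 4 pairings of columns the Lgals1 difference ranged from 0.43 to 5.17 cycles against Tmp and from 0.35 to 5.32 against Tsle cells. The 1 gene lower than in Tsle cells was the reference transcript Actb, by level 8.83 cycles in unsorted and 10.1 in Tsle cells. The 4 higher and 1 lower genes became 6 and 0 when cells were centred on Actb and Gapdh, and 5 and 0 with R18s in place of Gapdh. The Ccl5 level was 2.52 cycles in unsorted, 0.49 in Tmp and 0.00 in Tsle cells, and Klf2 stood at 4.39, 2.74 and 2.89. Ccl5 was nevertheless detected in 94.9% of Tsle cells, a larger share than the 87.7% of unsorted cells. Its level of 0.00 means that no Tsle value passed the limit, and not that the transcript was absent.

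For some genes the unsorted share lay outside those of both sorted populations. Prdm1, Cxcr3, Klf2, Thy1, Rela and Mapk14 (6.38% of 94) were detected in at least 10 points more of the unsorted cells than of either sorted population, and 0 genes in at least 10 points fewer. Prdm1 was in 20.8% of unsorted, 5.56% of Tmp and 8.86% of Tsle cells. Of the 6, Prdm1 alone kept a gap of at least 10 points in both the earlier and the later unsorted columns. Unsorted cells had a median of 19 detected genes, Tmp cells 16 and Tsle cells 17, and the part of this in the 6 differences was not tested.

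**Figure D4:**
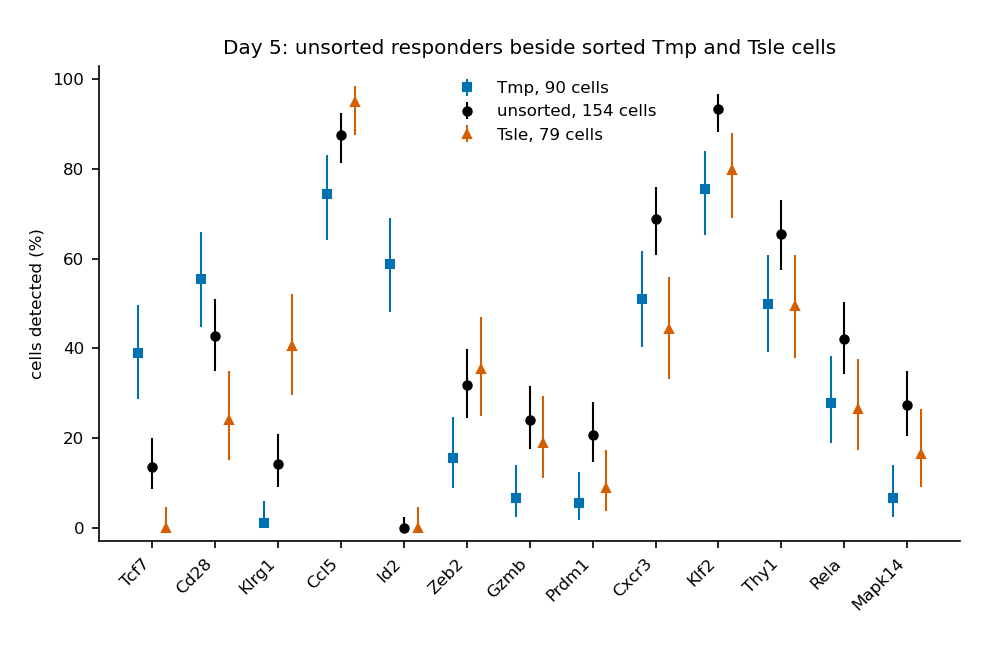
Share of cells, in percent, with a value above 0 for 13 genes in Tmp cells (blue squares, 90 cells), unsorted cells (black circles, 154 cells) and Tsle cells (orange triangles, 79 cells) at day 5, with exact 95% intervals. Tcf7, Cd28, Klrg1 and Ccl5 of unsorted cells lay between the sorted shares, and Prdm1, Cxcr3, Klf2, Thy1, Rela and Mapk14 above both.

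The same fractions were next followed cell by cell. Counting Zeb2, Prdm1, Gzmb and Klrg1 in each day 5 cell, 57 cells (37.0%, 29.4% to 45.2%) had none of the 4, 65 (42.2%) had 1, 23 (14.9%) had 2, 7 (4.55%) had 3 and 2 (1.30%) had all 4. If the 4 transcripts were placed in cells independently at their own shares, these numbers would be 54.2, 65.6, 28.6, 5.28 and 0.349. Fewer cells than computed had 2 of the transcripts and more had none, 3 or all 4, and cells with exactly 1 were the most frequent kind. The computed numbers take the earlier and later columns together, although detection differed between them, and the part of this was not tested. The share with none of the 4 was 92.6% in naive cells, 74.8% at day 3 and 38.1% at day 7, and 73.3% in Tmp and 29.1% in Tsle cells. At least 1 of the 4 was present in 70.1% of cells in earlier day 5 columns and 55.8% in later ones.

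Tcf7 did not exclude these effector transcripts. Of the 21 cells with Tcf7, 11 (52.4%, 29.8% to 74.3%) also had at least 1 of Zeb2, Prdm1, Gzmb and Klrg1, compared with 86 of the 133 without Tcf7 (64.7%, 55.9% to 72.7%). These intervals overlap. Zeb2 was in 8 of the 21 cells with Tcf7 (38.1%) and in 30.8% of the others, so among these day 5 cells it was not rarer with Tcf7. Prdm1 was in 2 of the 21 (9.52%, 1.17% to 30.4%) and in 22.6% of the others. Il7r was in 3 of the 21 (14.3%, 3.05% to 36.3%), so most cells with Tcf7 lacked this transcript of naive and memory cells. Its share in the 133 others was lower, with 7 cells (5.26%, 2.14% to 10.5%), and these intervals overlap. All 3 cells with both lay in the earlier columns. A further 47 cells (30.5%, 23.4% to 38.4%) had neither Tcf7 nor any of the 4, in 22.1% of cells in earlier and 39.0% in later columns.

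Co-detection of each pair was summarised by the log2 odds ratio, which is 0 when 1 transcript is as frequent in cells with the other as in cells without it. Among the 21 pairs of Tcf7, Zeb2, Prdm1, Gzmb, Il2ra, Cxcr3 and Klrg1, 3 pairs reached 1 or more and 1 reached -1 or less. Tcf7 and Cxcr3 were together in 18 cells (14.5 from the product of their shares, log2 odds ratio 1.44), Zeb2 and Klrg1 in 11 (7.00, 1.30) and Gzmb and Il2ra in 20 (14.2, 1.22). Tcf7 and Prdm1 were together in 2 cells (4.36, -1.20). These numbers are near the background: of the 666 pairs of the 37 genes found in 10% to 90% of the cells, 18.9% reached 1 or more and 4.2% reached -1 or less. The median was 0.15 over the 21 pairs and 0.35 over the 666.

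Of the 4 pairs, Zeb2 and Klrg1 was the one past 1 in both the earlier columns (1.23) and the later ones (1.14). Klrg1 was in 22.4% of cells with Zeb2 (11.8% to 36.6%) and in 10.5% of cells without it (5.35% to 18.0%). Gzmb and Il2ra were at 1.77 and 0.74, and Il2ra was in 54.1% of cells with Gzmb (36.9% to 70.5%) and in 33.3% of the others (24.9% to 42.6%). Tcf7 and Cxcr3 were at 0.80 and 1.62, and Tcf7 and Prdm1 at -1.52 and -0.28. In all, 15 of the 21 pairs had the same sign in both sets of columns, against 352 of the 666 (52.9%). Cells with any 1 of the 7 transcripts also had more other genes detected, that transcript itself left out. The median was, for example, 20 in cells with Gzmb and 17 in those without, and 19 and 18 for Tcf7. In the cells with at least the median number of detected genes, Tcf7 and Cxcr3 stood at 0.24, Gzmb and Il2ra at 0.996, Zeb2 and Klrg1 at 1.18 and Tcf7 and Prdm1 at -1.81.

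In the other populations the pairs varied. Zeb2 and Klrg1 stood at 0.54 in day 5 Tsle, 0.86 in unsorted day 7 and -1.31 in day 7 Tsle cells. Gzmb and Il2ra stood at 1.04 at day 3, 1.20 in day 5 Tsle and 1.81 in day 7 Tsle cells. The last value rests on 2 cells with both (0.87 from the product of their shares). They stood at 0.27 in unsorted day 7 and -0.03 in day 5 Tmp cells. Each of these populations had 1 cell with both (1.12 and 1.27 from the product). The 0.27 is thus above 0 only through the 0.5 added to each count. Tcf7 and Klrg1, at 0.15 in unsorted day 5 cells, stood at -2.40 in unsorted day 7 cells. At day 5 Klrg1 was in 14.3% of cells with Tcf7 and 14.3% of those without, so the 0.15 comes from the added 0.5 alone. At day 5 Tcf7 and Klrg1 were together in 3 cells (3.00 from the product of their shares), and at day 7 in 3 cells (10.1). Tcf7 and Zeb2, at 0.49 in unsorted day 5 cells, stood at -1.79 at day 3 and -1.21 in unsorted day 7 cells. They were together in 4 cells at day 3 (6.10 from the product of their shares) and in 12 at day 7 (17.7). Their value was -0.69 in day 5 Tmp cells and 0.76 in naive cells, the latter with 2 cells that had both. Whether the populations differ in these pairs was not tested.

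**Figure D5:**
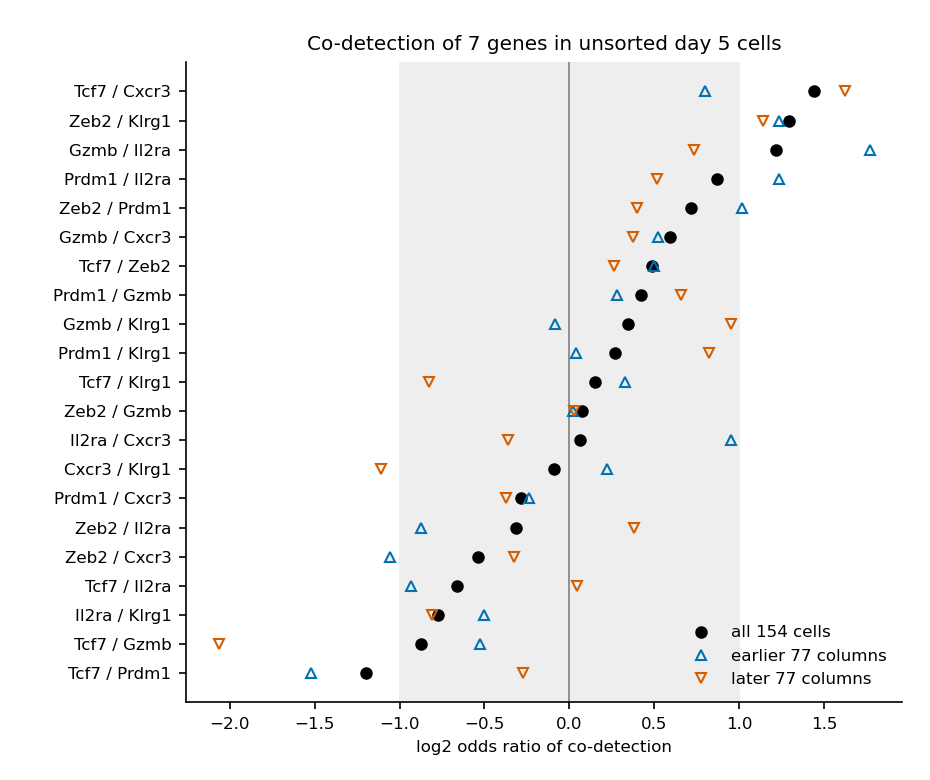
Log2 odds ratio of co-detection for the 21 pairs of 7 genes in unsorted day 5 cells, over all 154 cells (black), the earlier 77 columns (blue) and the later 77 (orange). The grey band spans -1 to 1. Zeb2 and Klrg1 lay past 1 in all 3, and Tcf7 and Prdm1 lay lowest over all cells at -1.20.

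Around each of the 7 transcripts, few other genes differed by 20 points between cells with and without it. In cells with Klrg1 there were 4 of 93 (4.3%), in cells with Prdm1 or Gzmb 2 each (2.15%), and in cells with any of the other 4 at most 1 (1.08%) in each direction. The 4 included Ifngr1 (86.4% with and 52.3% without), Zfp281 (59.1% and 34.8%) and Zeb2 (50.0% and 28.8%), and each of the 4 was higher in cells with Klrg1. Ifngr1 was the one that kept 20 points in both sets of columns, in 14 of 15 and 5 of 7 cells with Klrg1. Cells with Klrg1 also all had Ccl5, 22 of 22 (84.6% to 100%), beside 113 of 132 without Klrg1 (85.6%, 78.4% to 91.1%), and these intervals overlap. The median Ccl5 value was 16.2 in cells with Klrg1 and 14.8 in cells with Ccl5 and no Klrg1, a gap of 1.63 cycles in the earlier and 0.42 in the later columns. Cells with Prdm1 more often had Cd8a (24 of 32 and 65 of 122 cells), cells with Tcf7 more often Cd28 (61.9% and 39.8%), cells with Zeb2 more often Ifngr1 (73.5% and 49.5%), and cells with Cxcr3 more often Stat4 (32.1% and 10.4%), the transducer of interleukin-12 signals. In day 5 Tsle cells Ifngr1 was in 50.0% of cells with Klrg1 and 51.1% of cells without. Stat4 ran the other way in day 5 Tmp cells, in 17.4% of cells with Cxcr3 and 38.6% of cells without, and was in 28.6% and 15.9% in Tsle cells.

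The granzyme B inhibitor gene Serpinb9 was more frequent in cells with Gzmb. Serpinb9 was in 15 of the 37 cells with Gzmb (40.5%, 24.8% to 57.9%) and in 14 of the 117 without (11.97%, 6.70% to 19.3%). The gap was wide in the earlier columns (12 of 22 and 7 of 55) and narrow in the later ones (3 of 15 and 7 of 62). It was not seen in the sorted cells, with 2 of 15 and 7 of 64 in Tsle and 0 of 6 and 11 of 84 in Tmp cells. This pair, and those with Ccl5 and Il2ra that follow, were picked from the 666 after their odds ratios were seen. So were the pairs above of Klrg1 with Ccl5 and with Ifngr1, and of Zeb2 with Ifngr1. The same holds for Cxcr3 with Stat4, Prdm1 with Cd8a and Tcf7 with Cd28. Tcf7 with Il7r, which is not among the 666, was also chosen at that point.

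The 19 day 5 cells without Ccl5 carried the interleukin-2 receptor chains most often. Il2ra was in 14 of them (73.7%, 48.8% to 90.9%) and in 45 of the 135 cells with Ccl5 (33.3%, 25.5% to 42.0%). Il2rb was in 18 of the 19 (94.7%, 74.0% to 99.9%) and in 90 of the 135 (66.7%, 58.0% to 74.5%), and all 14 of the Il2ra cells had Il2rb as well, against 28 cells with both chains among the 135. The direction was the same in the earlier columns, where Il2ra was in 5 of 6 cells without Ccl5 and 21 of 71 with it, and in the later ones (9 of 13 and 24 of 64). Zeb2 was in 2 and Klrg1 in 0 of the 19 cells, Ifngr1 in 6 and Cd28 in 12. The median number of genes detected was 19 in cells without Ccl5 and 18 in cells with it, so these cells were not poorer in detected genes. In day 5 Tmp cells, of which 23 lacked Ccl5, Il2ra was in 17.4% of these and 22.4% of the others, so the difference of the unsorted cells was not seen there.

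Il2ra also went with Rela, a subunit of NF-kappa-B, which was in 57.6% of cells with Il2ra (44.1% to 70.4%) and 32.6% of cells without (23.4% to 43.0%). Ifngr1 ran the other way, in 44.1% of cells with Il2ra and 65.3% of cells without. Both directions held in each set of columns, with Rela at 57.7% and 27.5% in the earlier and 57.6% and 38.6% in the later ones, and Ifngr1 at 65.4% and 80.4%, then 27.3% and 47.7%. At day 3, too, Ifngr1 was in 9.72% of cells with Il2ra and 35.2% of cells without. At day 7 the order was reversed, at 60.0% and 33.6%. Ifngr1 differed little in the sorted day 5 cells, with 36.8% and 33.8% in Tmp and 14 of 29 and 26 of 50 in Tsle cells. Rela was more frequent with Il2ra in day 5 Tmp cells (42.1% and 23.9%), at day 3 (30 of 72 and 22 of 71) and at day 7 (6 of 15 and 27 of 119). In day 5 Tsle cells Rela ran the other way, in 6 of 29 and 15 of 50.

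Among abundant transcripts, values were partly related from cell to cell. Over the 154 cells, Actb and R18s had a Pearson correlation of 0.64. Actb and Lgals1 had 0.68 in the earlier and 0.58 in the later columns. Ccl5 and Lgals1 had -0.01 across the cells in which both were detected. These correlations are descriptions across cells of 1 sample, which share the RNA content of each cell and the column step.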

How the data were processed

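Single CD8+ T cells were lysed and reverse-transcribed in the sorting mix, preamplified for 18 cycles, diluted 5-fold and run on BioMark dynamic arrays, per the labels' protocols. The authors deposited 1 table of 95 assay rows by 1449 cells on a log2 scale of PCR cycles. The labels call the values Ct and not normalized, but a higher value means more RNA and undetected transcripts stand at 0, so they were taken to be 40 minus Ct, with the 40 deduced from the data. Any filter on cells is not given in the sources used here.

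Il2 was measured by 2 rows and the first was used, which left 94 genes. By accession, 93 of the rows matched RefSeq names of GRCm38.p6. Of the values above 0 in the 154 day 5 cells, 10.2% lay at or below the limit of 12 (Ct of 28). Cells were not filtered, and nothing was normalized. Certain genes that enter the counts are not reported here. Odds ratios had 0.5 added to each count. For a count of 0, the limit given is the share of 3 cells, 1.95% of 154, and not the exact bound of 2.37%.

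Named genes are those past the size threshold in a comparison, the 7 genes of the co-detection analysis, the 6 markers, and members of 15 lists. Members, lists and thresholds were chosen with earlier results of these data known. Alternatives were limits at a Ct of 26 or 24 or none, thresholds of 15 and 30 points, levels centred in each cell on Actb and Gapdh or on R18s and Actb, minimum numbers of assays per cell, values of detected cells alone, and the earlier or later columns alone. After seeing the data, the split at column 72, the requirement of all 4 pairings of earlier and later columns, and pairs of 1 sign in both sets of columns were added. Scripts ran in Python 3.11.15 with scipy 1.17.1 for intervals, numpy 2.4.6 for summaries and matplotlib 3.10.9 for figures. The size rule, intervals, odds ratio and step search were tested on simulated data.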

Additional observations from a re-analysis of the deposited data

How the results depend on the processing

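No paired analysis was possible because each population is 1 sample and the labels give no replicate numbers. Of the counts by share, the 16 genes apart from naive cells became 25 in the columns before the step, and the 21 apart from day 3 became 13 at 30 points and 13 when all 4 pairings of columns were required. Apart from day 7 there were 5 genes, 8 in the earlier, 8 in the later and 8 in the columns before the step, 1 at 30 points and 0 in all 4 pairings. Apart from Tmp there were 4, 11 in the earlier columns, 10 before the step, 1 at 30 points and 1 in all 4 pairings. Apart from Tsle there were 2, 6 in the earlier and 7 in the later columns, 4 before the step, 0 at 30 points and 0 in all 4 pairings. A threshold of 30 points and the requirement of all pairings are stricter by construction.

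The counts by level depended on the limit. Against naive cells 13 genes became 7 at a Ct of 26, 3 at 24, 37 with no limit and 8 in all 4 pairings, and against day 3, 16 became 7, 3, 43 and 10. Against day 7, 9 became 4, 2, 27 and 3, and 22 in detected cells alone. Against Tmp 7 became 2 at a Ct of 24 and 27 with no limit, and against Tsle 5 became 2 and 21, and 8 in detected cells alone. The cause of these shifts was not tested. A higher limit leaves fewer cycles in which genes can differ.

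The 4 pairs past 1 became 9 in cells with at least the median number of assays, 8 before the step, and 1 when both sets of columns had to be past 1 with 1 sign. The unsorted share lay between Tmp and Tsle for 4 of 5 genes at 20 points and for 8 of 11 at 15 points. The other 67 recomputed counts and medians stayed within 1.5 times, and of the recomputed values of single genes and pairs, 64 stayed, 16 moved, 7 no longer passed 1 and 0 changed direction. The number of cells limits every value, since 3 cells are 1.95% of the population.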
